A study of Mus musculus with 19 samples.

Results

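Macrophages sorted from the whole cochlea of young mice were compared with the nonmacrophage cells of young cochleae, gene by gene. The comparison used 6 of the 19 libraries of the series, chosen by their labels: 2 young macrophage libraries (replicates 9 and 15) and 4 young nonmacrophage libraries (replicates 2, 5, 6 and 14). Every mouse, in both groups, was a heterozygous CX3CR1 GFP knock-in (CX3CR1 GFP/+), in which green fluorescent protein stands in for 1 copy of the chemokine receptor gene Cx3cr1. The young mice were 1.5 months old. The sorter put cells with GFP in the macrophage fraction and those without it in the nonmacrophage fraction, and the isolate of 1 mouse counted as 1 sample. Whether a macrophage and a nonmacrophage library came from the same mouse is not given in the sources used here. Libraries from old mice, aged 12 to 14 months, single sorted libraries of the young auditory nerve and lateral wall and 1 unsorted young library were used only where named. The macrophage group therefore holds whatever GFP-positive cells the dissociated cochlea gave, and its level of Cx3cr1 is tied to the sort.

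Macrophages are the resident immune cells of the cochlea. They lie along the auditory nerve, among the vessels and fibrocytes of the lateral wall and beneath the sensory epithelium, and depend on signalling through the receptor Csf1r. They recognise microbes and dying cells through surface receptors, take them up, digest them in lysosomes, present peptides on MHC class II, and release complement and chemokines. The GFP-negative fraction holds the rest of the cochlea, which includes myelinating Schwann cells, neurons, fibrocytes, strial cells, vessels, bone and leukocytes without the reporter.

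Expression is given in normalized reads, the authors' read counts divided by a library size factor, which are not corrected for gene length, so levels are compared between libraries and not between genes. Macrophage replicates 9 and 15 held 25.4 and 35.1 M reads in genes (M, mega), and the nonmacrophage libraries 24.9 to 60.2 M reads. A count of 0 allows up to 3 reads, which is 5.27 and 3.39 normalized reads in macrophage replicates 9 and 15 and 1.60 to 5.33 in the nonmacrophage libraries. These floors cover counting error only. The macrophage libraries had reads in 11652 genes (replicate 9) and 13532 genes (replicate 15), against 14399 to 17200 genes in the nonmacrophage libraries. Of 9661 genes with at least 100 normalized reads in each of the 12 other sorted whole-cochlea libraries, replicate 9 had no reads in 944 (9.77%), replicate 15 in 246 (2.55%) and both in 110 (1.14%). The same genes had no reads in 112 cases in the auditory nerve macrophage library and in 172 in the lateral wall macrophage library.

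The 8 genes that check the sort separated the groups in every library. Cx3cr1 (chromosome 9, 119901616 to 120069879, minus strand, mm10) had 9201 and 22528 normalized reads in macrophage replicates 9 and 15, against 1.78, 2.72, 1.63 and 4.28 in nonmacrophage replicates 2, 5, 6 and 14. Csf1r, the receptor for colony stimulating factor 1, had 42430 and 148960 in the macrophage libraries, against 19.6, 128, 35.9 and 148 in the nonmacrophage libraries. Both genes rose, by 12.02 ± 1.83 and 10.33 ± 1.46 on the log2 scale (standard error, n = 2 and 4, adjusted p = 0.0339 for each), where a difference is that of mean log2(value + 1) and the p-values come from limma with Benjamini-Hochberg adjustment over 16435 genes. C1qa, a chain of complement C1q, had 87250 and 106780 in macrophages, against 22.5 to 176 in nonmacrophages, and rose by 10.42 ± 1.33 (adjusted p = 0.0328). A gene is termed called below when its adjusted p was under 0.05.

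The remaining macrophage checks lay far apart between the groups without being called. Adgre1, which encodes the surface protein F4/80, had 11469 and 44222 normalized reads in macrophages, against 1.78, 98.1, 16.3 and 15.0 in nonmacrophages (adjusted p = 0.0591). Ptprc, the pan-leukocyte protein CD45, had 4009 and 8626 in macrophages, against 112, 84.4, 8.16 and 564 in nonmacrophages (adjusted p = 0.225). Aif1, which encodes the macrophage protein IBA1, had 16354 and 13805 in macrophages, against 1.78, 20.4, 66.9 and 254 in nonmacrophages (adjusted p = 0.132). For each of these 3 genes the groups did not overlap, and the values within the nonmacrophage group spread widely.

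Markers of the other cells went the opposite way. Mbp, myelin basic protein, had 26033 and 28892 normalized reads in macrophages, against 1160000, 1230000, 2510000 and 1780000 in nonmacrophages, and fell by 5.86 ± 0.69 on the log2 scale (adjusted p = 0.0255). Coch, the abundant secreted protein of cochlear fibrocytes, had 21253 and 23836 in macrophages, against 125820, 362710, 120470 and 152450 in nonmacrophages (difference -2.92 ± 0.81, adjusted p = 0.111). Neither gene was near 0 in the macrophage libraries. In sorted bulk RNA a lower value can come from fewer cells of a type or from less RNA per cell, and these cannot be told apart.

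**Figure D1:**
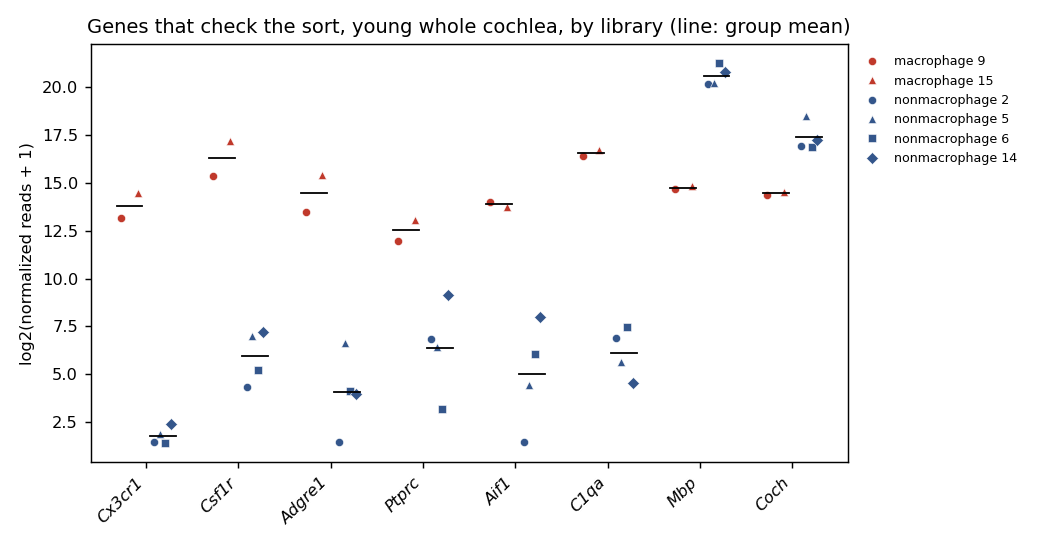
Values of the 8 genes that check the sort, as log2(normalized reads + 1) on the vertical axis, with the 2 macrophage libraries in red to the left of the 4 nonmacrophage libraries in blue for each gene and a line at the group mean. Cx3cr1, Csf1r, Adgre1, Ptprc, Aif1 and C1qa lie above every nonmacrophage library in both macrophage libraries, and Mbp and Coch below.

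Across the 16435 genes tested, 266 (1.62%) were called, with 50 (0.304%) higher and 216 (1.31%) lower in macrophages, and 2815 had an unadjusted p under 0.05. The median difference over all genes tested was -0.75 on the log2 scale, or -0.61 with genes that had no reads in a whole group set to the floor, so differences are read against that centre. The fit gave each group its own variance level, which weighted the macrophage libraries 0.43 and the nonmacrophage libraries 1.53. With 1 variance for both groups it called 341 genes higher (2.07%) and 1085 lower (6.6%). Each of the 266 called genes was also called in the same direction in the authors' deposited table. That table, from the same reads and contrast, called 6937 of the 17182 genes with an adjusted p, so the overlap is not an independent check. The number of calls depended on the libraries: new fits without any 1 nonmacrophage library called 4 to 11 genes in all. With 1 macrophage library the spread of that group cannot be measured. The median difference over all genes was then -0.31 without macrophage replicate 9 and -0.97 without replicate 15.

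A plain separation was also counted: the lowest value of the higher group, plus 1 normalized read, had to be at least 4 times the highest value of the lower group, plus 1 normalized read. This criterion was chosen after the data were seen. It held for 428 genes higher in macrophages (2.6%) and 1376 lower (8.37%), and for all 266 called genes. Groups without overlap alone were found for 1937 genes higher (11.8%) and 3437 genes lower (20.9%). Counts of list members below are to be read beside these shares of all genes and those of the calls. No set test was run.

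The 10 genes with the largest called differences upward had at most 66.3 normalized reads in any nonmacrophage library. Ccl12, a monocyte-attracting chemokine of the mouse (chromosome 11, 82101845 to 82103400), had 66116 and 15888 normalized reads in macrophages, against 1.78, 2.72, 3.26 and 2.14 in nonmacrophages, and rose by 13.21 ± 1.75 (adjusted p = 0.0328). Mrc1, the mannose receptor CD206, had 7592 and 15205 in macrophages, against 1.07 to 1.78 in nonmacrophages, and rose by 12.10 ± 1.89 (adjusted p = 0.0343). The activating receptor Cd300c2 had 19368 and 13910 in macrophages, against 0, 1.36, 1.63 and 25.7 in nonmacrophages. Both macrophage values of these 3 genes were far above every nonmacrophage value. The other members of this group of 10 are P2ry13, Cx3cr1, Lilra5, Ms4a6d, Folr2, Ccl4 and Clec4n. Lilra5, an immunoglobulin-like receptor of myeloid cells, had 4502 and 6341 in macrophages, against 1.78, 1.36, 0 and 0 in nonmacrophages, and Ms4a6d, a membrane protein of the Ms4a family, had 5529 and 15113, against 0, 1.36, 1.63 and 9.09.

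Of the 10 genes with the largest called differences downward, 7 had no read in either macrophage library. Crhbp, which binds corticotropin-releasing hormone, had 0 and 1.13 normalized reads in macrophages, against 5768, 14840, 5629 and 18429 in nonmacrophages, and fell by 12.70 ± 1.23 (adjusted p = 0.00839). Vmo1, a secreted protein homologous to an egg membrane protein, had 7.02 and 2.26 in macrophages, against 50453, 24965, 24893 and 21775 in nonmacrophages, and fell by 12.46 ± 0.80 (adjusted p = 0.00113). Ncmap, a myelin protein of peripheral nerve, had 1.76 and 5.64 in macrophages, against 39435, 15496, 47414 and 8117 in nonmacrophages (adjusted p = 0.00839). The level in macrophages was thus at or near the floor for all 3. Taken against 3 reads per library, averaged over both macrophage libraries, the 7 genes with no reads were at least 1316-fold lower for Bglap, 1029-fold for Klk6, 773-fold for Dkk2, 639-fold for Mlip, 615-fold for Sfrp5, 554-fold for Pou3f1 and 542-fold for Mfap5. Dkk2 and Sfrp5 encode secreted Wnt antagonists, Pou3f1 a transcription factor of promyelinating Schwann cells, and Mfap5 a microfibril protein.

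**Figure D2:**
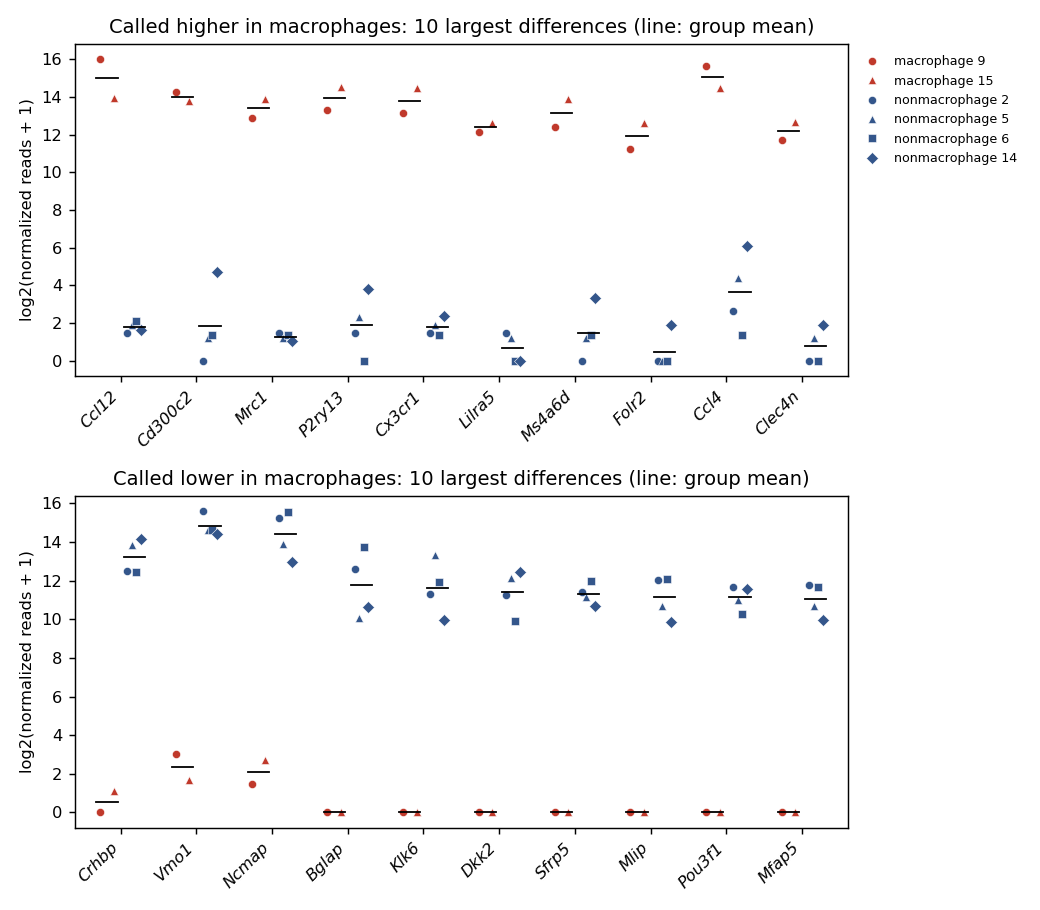
Values per library, as log2(normalized reads + 1), of the 10 genes with the largest called difference upward (top) and downward (bottom), with macrophage libraries in red to the left of nonmacrophage libraries in blue and a line at the group mean. The 20 genes were chosen among those without overlap between the groups, and 7 of the 10 lower genes sit at 0 in both macrophage libraries.

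Of the 216 genes called lower, 94 had no reads in both macrophage libraries, 126 had none in replicate 9 and 116 had none in replicate 15. Of the 50 called higher, 1 (Cd209f) had no reads in all 4 nonmacrophage libraries. Replicate 15 exceeded replicate 9 for 36 of the 50 genes called higher. The part of unread genes in the lower calls was not tested.

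Growth factor receptors and transcription factors set a macrophage's identity. Of the 8 receptors tested, 2 rose (Csf1r and Cx3cr1, where 0.304% of all genes rose) and none fell. At least 4-fold apart upward were 4 (2.6% of all genes). Il10ra, the receptor for the anti-inflammatory cytokine interleukin 10, had 6144 and 11261 normalized reads in macrophages, against 0, 20.4, 452 and 98.4 in nonmacrophages (adjusted p = 0.268), and Tgfbr2, a TGF-beta receptor, had 4404 and 10119, against 3992, 3820, 3513 and 7226 (adjusted p = 0.735). The Tgfbr2 values overlapped between the groups.

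Of the ligands for these receptors, 5 were tested and none was called. Cx3cl1, the ligand of Cx3cr1, had 3.51 and 2140 normalized reads in macrophages, against 3113, 6313, 2901 and 7974 in nonmacrophages (adjusted p = 0.161), so all nonmacrophage libraries lay above both macrophage libraries. The 2 ligands of Csf1r did not separate. Il34 had 0 and 970 in macrophages, against 1239, 1214, 1584 and 887 in nonmacrophages (adjusted p = 0.244), and Csf1 had 2491 and 3.39, against 409, 1362, 783 and 1539 (adjusted p = 0.498). Tgfb2 had 2354 and 333 in macrophages, against 1658 to 2810 in nonmacrophages (adjusted p = 0.45). In each of the 4 ligands the macrophage libraries differed strongly from each other.

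Among 15 transcription factors of the lineage, the median difference was 2.81 and none fell. Spi1, which encodes PU.1, the master regulator of myeloid cells, had 11064 and 13189 normalized reads in macrophages, against 12.4, 0, 268 and 482 in nonmacrophages (adjusted p = 0.28). Irf8, another lineage factor, had 7058 and 12330 in macrophages, against 110, 146, 424 and 2215 in nonmacrophages (adjusted p = 0.215). Spi1 and Irf8 had no overlap between groups, while Maf did: 2672 and 4669 in macrophages, against 5266, 1367, 3635 and 710 in nonmacrophages (adjusted p = 0.793).

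PU.1 binds purine-rich DNA with a core GGAA, and its longer recognition sequence GAGGAAGT was looked for, on both strands, in the 250 bases before the start of each gene (RefSeq, GRCm38.p6). It was found in 3 of 35 genes called higher that had a promoter sequence (8.57%), in 1 of 150 called lower (0.667%) and in 299 of all 12535 tested genes with one (2.385%). The interferon regulatory factor motif (GAAA, any 2 bases, GAAA) was found in 0 of 35 called higher, in 5 of 150 called lower (3.33%) and in 348 of all (2.78%), and the AP-1 motif TGANTCA in 4 of 35 (11.4%), in 12 of 150 (8%) and in 594 of all (4.74%). These shares describe the letters and not bound sites. The 3 higher genes that hold the PU.1 letters are C1qc, Ctsc, a lysosomal protease gene, and Ptgs1, a cyclooxygenase gene, and the 60 bases around each match follow to show them, 5′ to 3′ on the strand of the gene, with the match in capitals. The windows are chr4:136893076-136893135 on the minus strand (C1qc), chr7:88277908-88277967 on the plus strand (Ctsc) and chr2:36230366-36230425 on the plus strand (Ptgs1), and no annotated exon overlaps them.
C1qc: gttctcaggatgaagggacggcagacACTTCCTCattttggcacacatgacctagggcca
Ctsc: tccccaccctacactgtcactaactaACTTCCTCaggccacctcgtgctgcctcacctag
Ptgs1: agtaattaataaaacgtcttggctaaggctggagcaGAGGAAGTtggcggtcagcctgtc
The match begins 195 bases before the RefSeq start in C1qc (136892914, which differs from the end of the gene in the GENCODE annotation whose coordinates are given for C1qc elsewhere), 151 in Ctsc (88278085) and 24 in Ptgs1 (36230426). It lies on the opposite strand in C1qc and Ctsc and on the gene's own strand in Ptgs1. Ptgs1, named here for its match, had 5315 and 18880 normalized reads in macrophages, against 443, 439, 491 and 205 in nonmacrophages, and rose by 4.74 ± 0.90 (adjusted p = 0.0409).

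Core macrophage genes were high in both macrophage libraries. Of 18 tested, 5 rose (0.304% of all genes did), none fell, 16 were at least 4-fold apart (2.6% of all genes) and the median difference was 8.10. Cd14, the co-receptor for bacterial lipopolysaccharide, had 36390 and 42272 normalized reads in macrophages, against 87.1, 89.9, 189 and 191 in nonmacrophages, and rose by 8.23 ± 0.92 (adjusted p = 0.0187). Cd53, a leukocyte tetraspanin, had 28067 and 56027 in macrophages, against 900, 110, 524 and 473 in nonmacrophages (6.64 ± 1.23, adjusted p = 0.0395). The remaining members called were Csf1r, Lyz2 and Laptm5. Laptm5, a lysosomal membrane protein of leukocytes, had 30400 and 121980 in macrophages, against 400, 266, 1183 and 1587 in nonmacrophages (6.51 ± 1.20, adjusted p = 0.0395). Replicate 15 was the higher macrophage library in 14 of the 18.

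Genes typical of perivascular macrophages, a resident type along vessels, included 13 tested members. Of these, 4 rose (0.304% of all genes did), none fell and 9 were at least 4-fold apart (2.6% of all genes). The median difference was 7.17. Besides Mrc1, the genes that rose were Folr2, Stab1 and Cd209f. Folr2, a folate receptor, had 2401 and 6223 normalized reads in macrophages, against 0, 0, 0 and 2.67 in nonmacrophages (11.45 ± 2.24, adjusted p = 0.0423). The scavenger receptor Stab1 had 6402 and 14430 in macrophages, against 274, 163, 444 and 243 in nonmacrophages (5.18 ± 0.92, adjusted p = 0.0372). Cd209f, a C-type lectin (chromosome 8, 4102787 to 4105835), had 1334 and 5116 in macrophages and no reads in the 4 nonmacrophage libraries, which makes it at least 810-fold higher against the floor averaged over those libraries.

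Genes first described as typical of microglia, the macrophages of the brain, had 11 tested members. Of these, 6 rose (0.304% of all genes did), none fell and 7 were at least 4-fold apart (2.6% of all genes), with a median of 4.79. P2ry12, an ADP receptor that steers cell processes, had 15692 and 30836 normalized reads in macrophages, against 14.2, 112, 37.5 and 50.3 in nonmacrophages (9.00 ± 1.53, adjusted p = 0.0372). Tmem119, a membrane protein used to mark microglia in mouse brain, had 15202 and 27805 in macrophages, against 1045, 1280, 1736 and 1627 in nonmacrophages (3.88 ± 0.64, adjusted p = 0.0372). The 4 nonmacrophage values of Tmem119 were close to each other and well above the floor. Siglech, a sialic acid-binding lectin, had 13302 and 11990 in macrophages, against 1.78, 2.72, 6.53 and 17.1 in nonmacrophages (11.01 ± 1.95, adjusted p = 0.0372). Trem2 and P2ry13 were called as well.

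Complement C1q is built from 3 chains whose genes lie side by side on chromosome 4, C1qb at 136880129 to 136886187, C1qc at 136889804 to 136893065 and C1qa at 136895917 to 136898803. All 3 rose. C1qc had 165310 and 207480 normalized reads in macrophages, against 251, 104, 209 and 137 in nonmacrophages, and rose by 10.12 ± 0.77 (adjusted p = 0.00254), the smallest adjusted p among the genes called higher. C1qb had 267900 and 257000 in macrophages, against 124, 23.2, 845 and 85.0 in nonmacrophages (11.07 ± 1.84, adjusted p = 0.0372). C3ar1, the receptor for the C3a fragment, had 13238 and 27122 in macrophages, against 5.33, 29.96, 66.9 and 11.2 in nonmacrophages (9.88 ± 1.88, adjusted p = 0.0413). Over the 16 complement genes tested, 4 rose (0.304% of all genes did), none fell and 6 were at least 4-fold apart upward (2.6% of all genes). The median difference was 0.50. The other 12 components were not called. Differences were positive in 9 of the 16 and negative in 7. Groups without overlap lay upward in 7 (11.8% of all genes) and downward in 2 (20.9% of all genes). Of these 2, C2 had 1597 and 1711.5 in macrophages, against 4023.5 to 7373 in nonmacrophages (adjusted p = 0.192). Serping1 had 2180 and 3771, against 10084 to 24558 (adjusted p = 0.152).

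Of 7 Fc receptor and signalling chain genes, 1 rose (0.304% of all genes did) and none fell. At least 4-fold apart were 6 (2.6% of all genes), and the median was 7.96. Fcgr3, a receptor for immunoglobulin G, had 51883 and 71400 normalized reads in macrophages, against 212, 89.9, 147 and 112 in nonmacrophages (8.83 ± 0.84, adjusted p = 0.00839). The adaptor chain Tyrobp, which encodes DAP12, had 115530 and 63071 in macrophages, against 798, 35.4, 968 and 484.5 in nonmacrophages (adjusted p = 0.075). The other adaptor, Fcer1g, had 64891 and 58062 in macrophages, against 940.5, 46.3, 896 and 252 in nonmacrophages (adjusted p = 0.0708). Fcgrt, the neonatal Fc receptor that also works in endothelium and epithelium, overlapped between the groups, with 13509 and 22183 in macrophages, against 12945, 15793, 15639 and 10014 in nonmacrophages (adjusted p = 0.796).

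Pattern recognition receptors, which detect microbial products, had 19 tested members, and 4 rose (0.304% of all genes did) and none fell. At least 4-fold apart were 9 (2.6% of all genes), and the median was 3.11. Ly86, the partner of the Toll-like protein CD180, had 49769 and 39405 normalized reads in macrophages, against 219, 58.6, 11.4 and 105 in nonmacrophages (9.43 ± 1.71, adjusted p = 0.0394). Clec7a, which encodes the fungal glucan receptor dectin-1, had 9675 and 15918 in macrophages, against 274, 81.7, 94.6 and 53.5 in nonmacrophages (6.89 ± 1.27, adjusted p = 0.0395). Tlr2, the receptor for bacterial lipoproteins, had 2836 and 12702 in macrophages, against 258, 256, 303 and 278 in nonmacrophages (4.45 ± 0.90, adjusted p = 0.0468). Replicate 9 had no reads in 5 of the 20 receptors in the table and replicate 15 in 1.

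C-type lectins and Siglecs, sugar-binding receptors, gave 5 genes that rose (0.304% of all genes did) and none that fell among 17 tested. At least 4-fold apart were 11 (2.6% of all genes), and the median was 8.12. The genes that rose were Clec4n, Clec7a, Cd209f, Mrc1 and Siglech. Clec4n, which encodes dectin-2, had 3333 and 6435 normalized reads in macrophages, against 0, 1.36, 0 and 2.67 in nonmacrophages (11.40 ± 2.18, adjusted p = 0.0409).

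CC chemokines attract leukocytes. Of 14 tested, 3 rose and 1 fell, where 0.304% and 1.31% of all genes did. At least 4-fold apart upward were 9 (2.6% of all genes), and the median was 6.58. Ccl4, an inflammatory chemokine, had 51303 and 22937 normalized reads in macrophages, against 5.33, 20.4, 1.63 and 66.3 in nonmacrophages (11.43 ± 2.23, adjusted p = 0.043), and its reads could be shared with the similar Ccl3. Ccl7, a monocyte chemokine (chromosome 11, 82045712 to 82047525), had 14481 and 14409 in macrophages, against 99.6, 110, 352 and 236 in nonmacrophages (6.37 ± 1.07, adjusted p = 0.0372). Ccl11, the eosinophil chemokine eotaxin, lies between Ccl7 and Ccl12 on the chromosome, at 82057823 to 82062955, and fell: it had 1.76 and 203 in macrophages, against 5046, 5066, 3384 and 3652 in nonmacrophages (-7.47 ± 1.39, adjusted p = 0.0395). Ccl12 and Ccl4 were higher in replicate 9 than in replicate 15, the reverse of Cx3cr1 and Csf1r, and replicate 9 was the higher macrophage library in 10 of the 15 chemokines in the table.

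MHC class II and its loading machinery, 13 genes tested, had none called by the main test. At least 4-fold apart upward were 6 (2.6% of all genes), and the median was 3.81. With 1 variance for both groups, 7 were called higher (2.07% of all genes were). On simulated counts with the spread of the macrophage libraries, that fit made many more false calls than the main one. Cd74, the invariant chain, had 127820 and 183280 normalized reads in macrophages, against 1657, 1137, 6675 and 17774 in nonmacrophages (adjusted p = 0.136). For the class II chains H2-Ab1 and H2-Aa, both macrophage libraries likewise lay above all nonmacrophage libraries. H2-Ab1 had 73420 and 62083 in macrophages, against 217, 749, 1258 and 11976 in nonmacrophages (adjusted p = 0.199), and H2-Aa had 38581 and 38562, against 468, 392.2, 1641 and 4629 (adjusted p = 0.121). Nonmacrophage replicate 14 was the highest of its group in all 3. Ctss, the protease that trims the invariant chain, had 206940 and 263040 in macrophages, against 12.4, 144, 627 and 534 in nonmacrophages (adjusted p = 0.052).

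Lysosomal enzymes digest what macrophages take up. Of 29 of their genes tested, 7 rose (0.304% of all genes did) and none fell. At least 4-fold apart were 12 upward (2.6% of all genes) and 1 downward (8.37% of all genes), with a median of 2.33. The protease Ctsc, shown above for its promoter, had 42820 and 130500 normalized reads in macrophages, against 1517, 1336, 2782 and 1291 in nonmacrophages (5.51 ± 0.74, adjusted p = 0.0328). Lgmn, an asparagine-specific protease, had 40061 and 70517 in macrophages, against 2685, 3928, 2398 and 2591 in nonmacrophages (4.22 ± 0.61, adjusted p = 0.0339). Laptm5, given above, belongs to this list too, and the proteases Ctsd and Ctsh and the lysozyme gene Lyz2 were also called. Lyz2 had 582730 and 433420 in macrophages, against 4420, 338, 4123 and 3188 in nonmacrophages (7.90 ± 1.54, adjusted p = 0.0434), and reads could be shared with its near-identical copy Lyz1.

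Genes of lipid handling, with 20 tested, had 3 that rose (0.304% of all genes did) and none that fell. At least 4-fold apart were 6 (2.6% of all genes), and the median was 1.68. Apoe, the main lipid carrier of brain and macrophages, had 2080000 and 947720 normalized reads in macrophages, against 177830, 176760, 130000 and 107370 in nonmacrophages (3.28 ± 0.65, adjusted p = 0.0439). Lpcat2, an enzyme of platelet-activating factor synthesis, had 17110 and 27273 in macrophages, against 2004, 2818, 1462 and 1929 in nonmacrophages (3.43 ± 0.64, adjusted p = 0.0395). Trem2, a lipid receptor that signals through Tyrobp, had 24477 and 17718 in macrophages, against 12.4, 39.5, 3.26 and 13.4 in nonmacrophages (10.59 ± 1.85, adjusted p = 0.0372). Npc2, a cholesterol carrier of all lysosomes, had 19547 and 26898 in macrophages, against 16974, 10588, 14356 and 8423 in nonmacrophages (adjusted p = 0.532).

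Receptors and bridging proteins for dying cells, 20 tested, gave 2 that rose (Stab1 and Trem2) and 1 that fell, where 0.304% and 1.31% of all genes did. At least 4-fold apart upward were 6 (2.6% of all genes), and the median was 1.95. Tyro3, one of the TAM receptor kinases that also include Axl and Mertk, had 10.5 and 0 normalized reads in macrophages, against 1625, 2840, 848 and 2777 in nonmacrophages (-9.06 ± 1.65, adjusted p = 0.0391). Itgb5, an integrin subunit that helps engulfment, had 11188 and 28390 in macrophages, against 3067, 3944, 2769 and 8199 in nonmacrophages (adjusted p = 0.232).

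Purinergic genes, which sense extracellular nucleotides, gave 2 that rose (0.304% of all genes did) and none that fell of 8 tested. At least 4-fold apart were 4 (2.6% of all genes), and the median was 5.08. P2ry13, an ADP receptor, had 10130 and 23949 normalized reads in macrophages, against 1.78, 4.09, 0 and 12.8 in nonmacrophages (12.02 ± 2.18, adjusted p = 0.0392). P2ry6, a UDP receptor linked to phagocytosis in microglia, had 7356 and 13859 in macrophages, against 40.9, 0, 134 and 118 in nonmacrophages (adjusted p = 0.203). P2rx4, an ATP-gated channel, had 5763 and 11028 in macrophages, against 1588, 3218, 1442 and 1745 in nonmacrophages (adjusted p = 0.189). All 8 genes were higher in replicate 15 than in replicate 9.

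Of 18 Schwann cell and myelin genes, none rose, 7 fell (1.31% of all genes did) and 10 were at least 4-fold apart downward (8.37% of all genes), with a median difference of -3.78. Drp2, a scaffold protein of the Schwann cell membrane, had 84.3 and 182 normalized reads in macrophages, against 12350, 7104, 23159 and 24924 in nonmacrophages (-6.91 ± 0.91, adjusted p = 0.0328). Mbp and Ncmap, given above, Prx and Fa2h fell as well. Within this list the level left in macrophages differed by gene, high for Mbp and near 0 for Ncmap.

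Oligodendrocytes myelinate the central stretch of the auditory nerve. Of 13 of their genes, none rose, 3 fell (1.31% of all genes did) and 9 were at least 4-fold apart downward (8.37% of all genes). The median was -7.49 (-7.45 with genes at the floor). Mobp, a central myelin protein, had 212 and 200 normalized reads in macrophages, against 11358, 44427, 45760 and 82381 in nonmacrophages (-7.49 ± 1.13, adjusted p = 0.0339). Ermn, a cytoskeletal protein of oligodendrocytes, had 0 and 2.26 in macrophages, against 2244, 5116, 3999 and 2590 in nonmacrophages (-10.84 ± 1.40, adjusted p = 0.0328). The protease Klk6, at 0 in both macrophage libraries, had 2494, 10416, 3891 and 1005 in nonmacrophages. Aspa, an enzyme that breaks down N-acetylaspartate, had 1009 and 187 in macrophages, against 6989, 5219, 6092 and 1708 in nonmacrophages (adjusted p = 0.152).

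Collagen and matrix genes, 30 tested, had none that rose and 6 that fell (1.31% of all genes did). At least 4-fold apart downward were 17 (8.37% of all genes), and the median was -5.80 (-5.93 with genes at the floor). Lum, the small proteoglycan lumican, had 739 and 384 normalized reads in macrophages, against 12085, 9011, 10396 and 5278 in nonmacrophages (-4.04 ± 0.72, adjusted p = 0.0377). Col1a1, Col6a1 and Fbn1, which encode a chain of collagen I, a chain of collagen VI and fibrillin-1, had no reads in both macrophage libraries and were at least 303-fold, 296-fold and 230-fold lower. The others that fell were Col1a2 and Dcn. Nonmacrophage libraries held 569 to 2542 for Col1a1, 756 to 1795 for Col6a1 and 814 to 1470 for Fbn1.

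The cochlea sits in bone, and 12 bone cell genes gave none that rose and 3 that fell (1.31% of all genes did). At least 4-fold apart downward were 5 (8.37% of all genes), and the median was -5.71 (-5.09 with genes at the floor). Bglap, which encodes osteocalcin, had 0 and 0 normalized reads in macrophages, against 6212, 1088, 13867 and 1605 in nonmacrophages (adjusted p = 0.0372), and its near-identical neighbour Bglap2 had 0 and 0, against 3604, 513.5, 6014 and 875 (at least 636-fold lower, adjusted p = 0.0409). Ibsp, bone sialoprotein, had 0 and 1.13 in macrophages, against 1074, 4918, 4939 and 3103 in nonmacrophages (-11.01 ± 1.60, adjusted p = 0.0339). Alpl, alkaline phosphatase, had 1172 and 6118 in macrophages, against 6310, 9933, 8026 and 8744 in nonmacrophages (adjusted p = 0.3).

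Of 12 genes of fibrocytes and otic matrix, 1 fell (1.31% of all genes did), none rose and 2 were at least 4-fold apart downward (8.37% of all genes). Counts this small are not read as a result about the list. The median was -3.90 (-3.57 with genes at the floor). Otog, otogelin of the tectorial membrane, had 0 and 0 normalized reads in macrophages, against 1748, 376, 1333 and 613 in nonmacrophages (at least 235-fold lower, adjusted p = 0.0402). Emilin2, an extracellular glycoprotein of the cochlea, had 3126 and 3332 in macrophages, against 13171, 30403, 6536 and 66460 in nonmacrophages (adjusted p = 0.342). Tgfbi, a matrix protein also made by macrophages, had 4429 and 17208 in macrophages, against 6568, 11631, 6011 and 5859 in nonmacrophages (adjusted p = 0.883). Of 10 genes of strial intermediate cells and melanocytes, none was called, and in 9 both macrophage libraries lay below all nonmacrophage libraries (20.9% of all genes did).

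Of 18 genes of spiral ganglion neurons, the neurons of the auditory nerve, 14 had a positive difference and 4 a negative one. None of the 18 was called by the main test. At least 4-fold apart were 6 upward (2.6% of all genes) and none downward (8.37% of all genes). The median difference was 2.84. With 1 variance for both groups, 6 were called higher (2.07% of all genes were). That fit made many more false calls than the main one on simulated counts with the spread of the macrophage libraries. Snap25, a synaptic vesicle fusion protein, had 144550 and 74052 normalized reads in macrophages, against 7576, 17714, 6605 and 2339 in nonmacrophages (adjusted p = 0.121). The neurofilament gene Nefl had 39468 and 28720 in macrophages, against 1061, 4881, 914 and 995 in nonmacrophages (adjusted p = 0.0799). Tubb3, a neuronal tubulin, had 16120 and 13869 in macrophages, against 1289, 2607, 1092 and 160 in nonmacrophages (adjusted p = 0.216). In each of these the 2 macrophage libraries lay above all 4 nonmacrophage libraries, as they did for Uchl1, a neuronal deubiquitinase, with 24267 and 6754, against 5302, 1897, 2506 and 736 (adjusted p = 0.288). Without overlap in the other direction lay 2 genes, named after their values were seen: Gap43, a growth cone protein, with 0 and 71.1 in macrophages, against 180, 77.6, 377 and 162 in nonmacrophages (adjusted p = 0.356), and the neurotrophin receptor gene Ntrk2, with 1223 and 1076, against 2247, 3034, 2989 and 2788 (adjusted p = 0.342). Summed over the 18 genes, the macrophage libraries held 292300 and 181070, against 10300 to 43113 in nonmacrophages. In the single auditory nerve libraries the sum was 43614 in macrophages and 40937 in nonmacrophages, and in the lateral wall 1487 in macrophages, where Nefl and Tubb3 had no reads, and 4756 in nonmacrophages. The unsorted young cochlea library held 271970. In old mice Snap25 averaged 148160 ± 7239 in macrophages and 4628 ± 1304 in nonmacrophages, and Nefl 60448 ± 12978 in macrophages and 2650 ± 544 in nonmacrophages (SD, n = 4 each). The part of neuronal transcripts in the other results was not tested.

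**Figure D3:**
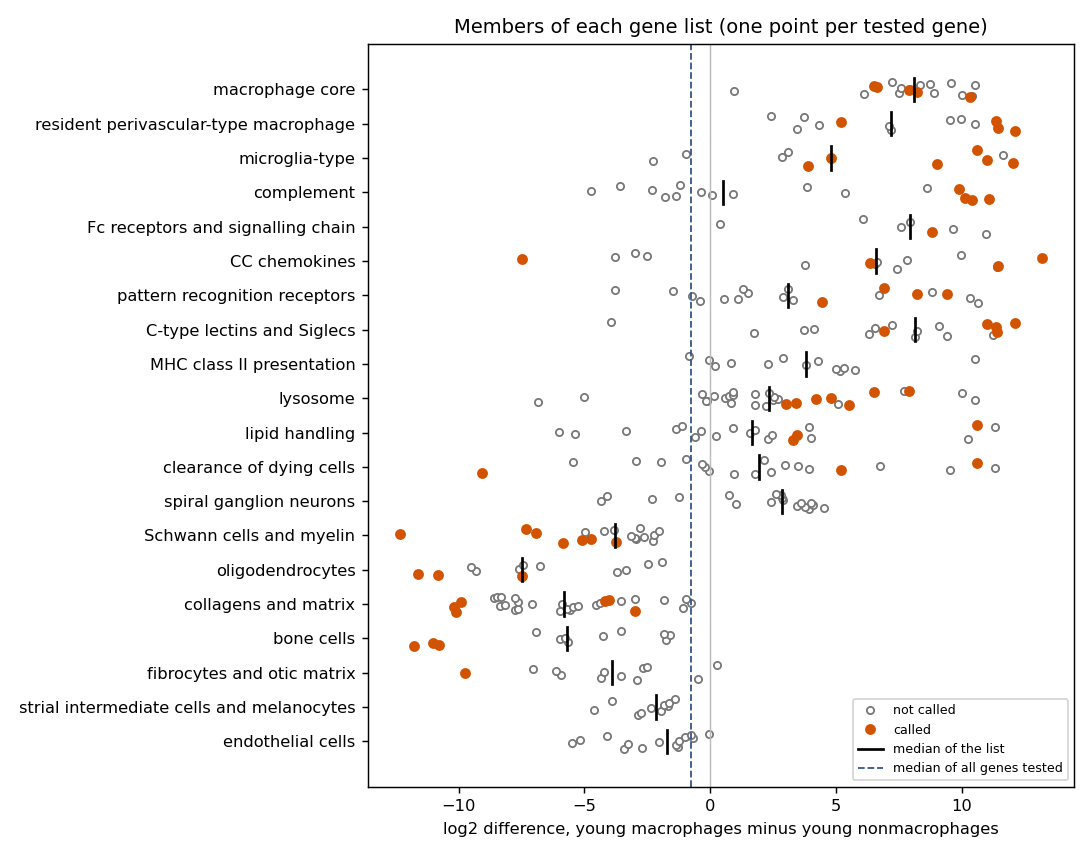
Log2 difference, young macrophages minus young nonmacrophages, of every tested member of 20 gene lists, with called genes in orange, a black bar at each list's median and a dashed line at the median of all genes tested (-0.75). Receptor, complement, chemokine and lysosome lists reach to the right, myelin, matrix and bone lists to the left, and neuronal genes lie mostly right with none called.

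Markers of other blood cells were uneven between libraries, and their part in the results was not tested. Of 12 T and NK cell genes tested none was called. Their summed level was 11580 in macrophage replicate 9 and 4156 in replicate 15, against 285 to 2226 normalized reads in nonmacrophages, with the defining T cell gene Cd3e at 0 in both macrophage libraries. Gzma, a cytotoxic granule protease, had 4269 and 418 in macrophages, against 53.3, 59.9, 511 and 16.6 in nonmacrophages. Gzmb had 2061 and 274, against 0, 195, 114 and 13.9, Nkg7 had 2645 and 824, against 196, 139, 1026 and 85.6, and Ctsw had 671 and 614, against 187, 116, 326 and 1.07. Cytotoxic genes were thus highest in replicate 9.

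Mast cell and basophil genes were found in replicate 15 and not in replicate 9. The summed level of the 7 genes in the table was 0 in replicate 9 and 20178 in replicate 15, against 1184 to 4627 in nonmacrophages, where Gata2, shared with endothelium, gave 994 to 4502 of it. Prss34, a basophil protease, had 0 and 13634 normalized reads in macrophages, against 0, 2.72, 0 and 0 in nonmacrophages, and Mcpt8, another basophil protease, had 0 and 4374, against 0, 1.36, 0 and 0. Both were also present in the single auditory nerve and lateral wall macrophage libraries, at 2358 and 3579 for Prss34 and 902 and 2100 for Mcpt8. Gata2 had 0 and 953 in macrophages, and Hdc, the histamine-forming enzyme, had 0 and 0, against 0, 143, 191 and 124 in nonmacrophages.

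Neutrophil and red cell transcripts lay mainly in the nonmacrophage libraries, unevenly. Summed over 12 neutrophil genes, macrophages held 1478 and 2546 normalized reads, and nonmacrophages 187 to 48904, with replicate 5 lowest. S100a8, an abundant calcium-binding protein of neutrophils, had 0 and 19.2 in macrophages, against 11007, 1.36, 13203 and 5321 in nonmacrophages, and S100a9, Ngp and Lcn2 had no reads in both macrophage libraries. Over 8 erythroid genes the sum was 26345 and 20057 in macrophages, against 13644 to 1785600 in nonmacrophages. The globin gene Hba-a1 had 9626 and 9210 in macrophages, against 800900, 180040, 228750 and 6455 in nonmacrophages, and its near-identical copy Hba-a2 can share its reads. In replicate 14 the nonmacrophage value lay below both macrophage values. None of the neutrophil or erythroid genes was called.

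**Figure D4:**
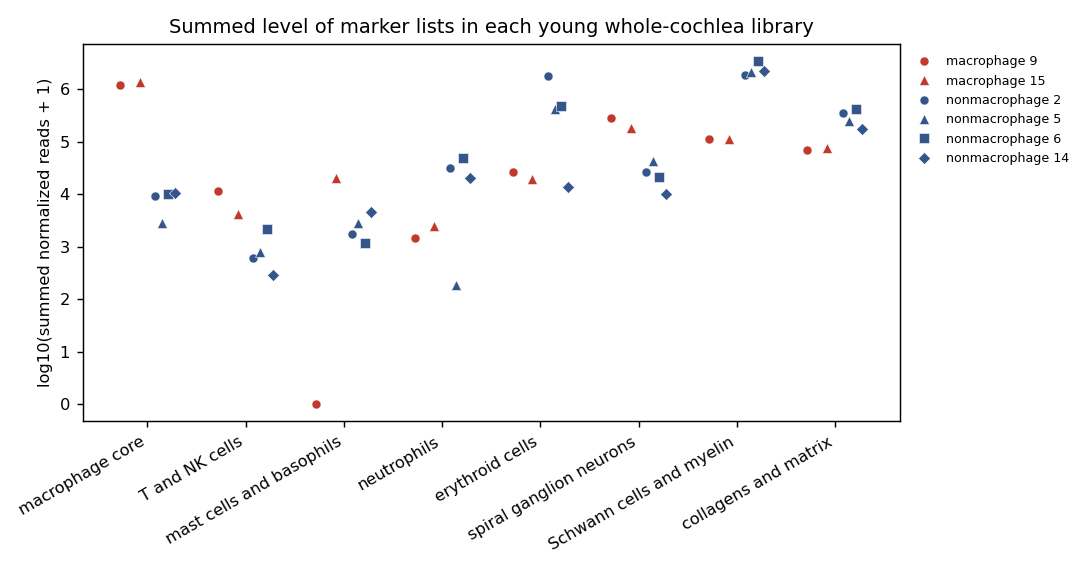
Summed normalized reads of 8 marker lists in each library, on a log10 scale after adding 1, with macrophage libraries in red to the left of nonmacrophage libraries in blue. Mast cell and basophil genes sum to 0 in macrophage replicate 9 and to 20178 in replicate 15, and nonmacrophage replicates 5 (neutrophils) and 14 (erythroid cells) lie below the rest of their group.

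Immediate early genes, which respond within minutes to handling and other stimuli, differed within both groups. None of 10 was called. Egr1 had 16256 and 82850 normalized reads in macrophages, against 10076, 14874, 4692 and 162720 in nonmacrophages, and Fos had 74099 and 207350, against 49171, 33990, 31260 and 171000. Dusp1 had 78830 and 199660 in macrophages, against 19184, 16034, 16088 and 52857 in nonmacrophages, and Zfp36 had 48237 and 120270, against 19796, 11431, 9980 and 50550. Macrophage replicate 15 and nonmacrophage replicate 14, the deepest library of each group, held their group's highest value of all 4.

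The 2 macrophage libraries correlated less with each other than any pair of nonmacrophage libraries did. Across genes, log2(normalized reads + 1) of replicates 9 and 15 correlated with Pearson's r = 0.753, and nonmacrophage pairs with r = 0.871 to 0.919, where genes are not independent replicates. By the chi-square of the read counts per degree of freedom, which grows with depth, the macrophage pair (689) lay within the range of the nonmacrophage pairs (215 to 884). Of 9498 genes with at least 500 normalized reads in either macrophage library, 1407 were at least 10-fold higher in replicate 15 and 452 in replicate 9. The largest ratios toward replicate 15 belonged to Prss34 and Mcpt8 and to Rab7b, Copb1, Kat7 and Soat1. Soat1, which esterifies cholesterol, had 0 and 4256 in macrophages, against 501, 911, 398 and 1056 in nonmacrophages, and was at least 808-fold higher in replicate 15 against the floor of replicate 9. Copb1, a coat protein of Golgi vesicles, had 0 and 4864 in macrophages, against 2239 to 4854 in nonmacrophages, and Kat7, a histone acetyltransferase, had 0 and 4611, against 1183 to 3113. Both of these act in most cells and had no read in replicate 9. Rab7b, a small GTPase, had 0 and 5095, against 679 to 1406.

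The largest ratios toward replicate 9 belonged to Aldh1a3, Sardh, Poc5, Rab11fip3, Cdh22 and Vasn, each with no read in replicate 15. Aldh1a3, an enzyme of retinoic acid synthesis, had 3993 and 0 normalized reads in macrophages, against 65.8, 1562, 700.0 and 392.5 in nonmacrophages, and was at least 1179-fold higher in replicate 9. Sardh, a mitochondrial enzyme, had 2870 and 0, against 829 to 1276, and the centriole gene Poc5 had 2789 and 0, against 130 to 1077. Rab11fip3 had 2587 and 0, against 757 to 1639, and Vasn had 2320 and 0, against 444 to 1251. For these 5 genes replicate 9 lay above all nonmacrophage libraries and replicate 15 below them. Cdh22, a cadherin, had 2326 and 0 in macrophages, against 0, 0, 0 and 75.4 in nonmacrophages. With 2 libraries there is no test of these ratios.

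**Figure D5:**
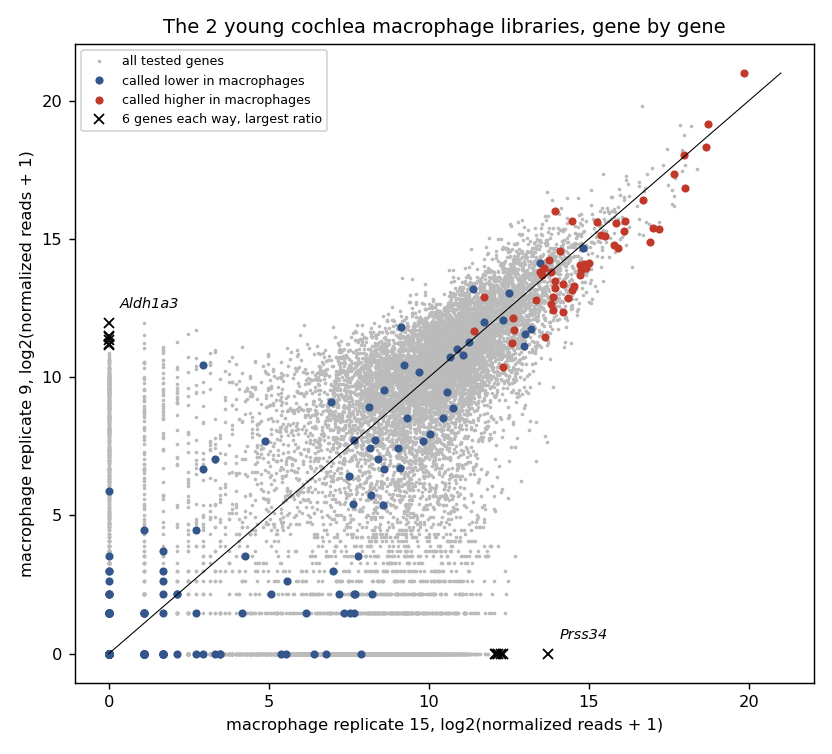
Each of the 18639 genes by its level in macrophage replicate 15 (horizontal axis) and replicate 9 (vertical axis), as log2(normalized reads + 1), with genes called higher in red, called lower in blue, the 12 genes of largest ratio as crosses and a line of equality. Grey points include genes that were not tested, although the key names tested genes. Genes called higher lie near the line at high levels, while many others lie on an axis because 1 library had no read.

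The young comparison was set beside the same comparison in old mice. Sequencing depth was not equal at the 2 ages. Read totals ran from 50.6 to 71.6 M in the old sorted libraries. They were 25.4 and 35.1 M in young macrophages and 24.9 to 60.2 M in young nonmacrophages. Old libraries detected 16750 to 17708 genes, young macrophages 11652 and 13532, and young nonmacrophages 14399 to 17200. The part of depth in the age differences was not tested. In a limma fit of the 14 sorted whole-cochlea libraries, the young difference minus the old difference was called lower for 134 of 18441 genes (0.727%) and higher for 0 (0.0%), with 1762 genes at an unadjusted p under 0.05. The quasi-likelihood test of edgeR called 141 genes higher and 1322 lower. Pkia, an inhibitor of protein kinase A, had no reads in both young macrophage libraries, against 567, 1155, 860 and 1328 in young nonmacrophages, while old macrophages averaged 2350 ± 539 and old nonmacrophages 1281 ± 46.4 (SD, n = 4 each). Its young difference was 10.71 below its old one on the log2 scale (SE 1.13, adjusted p = 0.00158). Osbpl5, a lipid transfer protein, had 0 and 1.13 in young macrophages, against 1307 to 2585 in young nonmacrophages, and 1034 ± 200 in old macrophages, against 2466 ± 239 in old nonmacrophages. Ubr7, a ubiquitin ligase, had 0 and 2.26 in young macrophages, against 754 to 964 in young nonmacrophages, and 1202 ± 137 in old macrophages, against 1168 ± 175 in old nonmacrophages. Zfp280d, a zinc finger gene, had 0 and 0 in young macrophages, against 571 to 1119 in young nonmacrophages, and 669 ± 105 in old macrophages, against 1208 ± 98.8 in old nonmacrophages. The fitted ages differed by -8.94 ± 1.08, -8.91 ± 1.16 and -8.81 ± 1.17 for these 3 (adjusted p = 0.00445, 0.0067 and 0.0067). All 4 genes were at or near 0 in both young whole-cochlea macrophage libraries, while the single auditory nerve macrophage library held 289 for Pkia, 755 for Osbpl5, 1566 for Ubr7 and 1070 for Zfp280d, and the lateral wall macrophage library 470, 0, 1679 and 561. New fits without 1 young nonmacrophage library called 77 to 147 genes. With 1 young macrophage library the spread of that group cannot be measured, so its calls are not counted here.

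Most called genes were separated in the same direction in other libraries of the series, where many other genes were separated too. Of the 50 called higher, all 50 had every old macrophage library above every old nonmacrophage library, and 49 had both the auditory nerve and the lateral wall macrophage library above both matching nonmacrophage libraries. Of the 216 called lower, 198 were separated in the same direction in the old libraries, and 158 in the nerve and lateral wall libraries. Of all 16435 genes tested, 25.0% were separated upward and 32.2% downward in the old libraries, and 24.2% upward and 28.8% downward in the nerve and lateral wall libraries. Pkia, called lower in young macrophages, had the higher mean in old macrophages, as given above. Mrc1, for example, had 58007 normalized reads in auditory nerve macrophages and 18275 in lateral wall macrophages, against 5.59 and 1.53 in the matching nonmacrophage libraries. Bglap, with no reads in both young whole-cochlea macrophage libraries, had 5587 in lateral wall macrophages, against 12883 in lateral wall nonmacrophages. The nerve and lateral wall libraries are single and give no test.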

How the data were processed

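RNA sequencing was done on sorted cells of single mice (SMARTer Ultra and Nextera XT libraries, per the labels' protocols). The deposited table holds 18639 genes as a normalized signal, reads divided by a library size factor. Per the submitters' processing notes, mm10, TopHat2, Partek and DESeq2 were used, with no versions or roles. Strand use in counting is not given in the sources used here. Whole reads were recovered for 99.891% of values, within a tolerance of 0.1 reads. The deposited p-value, its adjusted value and the signed fold score of the same contrast, the authors' own, were used only to count shared calls.

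The values were tested with limma 3.58.1 in R 4.3.3 on log2(value + 1), for genes that reached 1 normalized read in 2 or more of the 6 libraries, with 1 variance level per group, a mean trend, robust moderation and Benjamini-Hochberg adjustment at 0.05. The age comparison used 14 whole-cochlea libraries, (young macrophages minus young nonmacrophages) minus the same in old mice. edgeR 4.0.16 and DESeq2 1.42.0 on the recovered reads, other scalings, pseudocounts and filters, and each library left out were alternatives. On simulated counts the limma and edgeR steps recovered most set changes at a low spread and few or none at the spread of the macrophage libraries, where limma with 1 variance for both groups made many more false calls than with a level per group. Floors of 3 reads and depth cover counting error only.

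The comparison, gene lists and alternatives were chosen with earlier results of these data known. Named genes were the sort checks, the 10 largest called differences each way (mean of at least 20, no overlap, no predicted or sex-linked names), up to 4 members per list by adjusted p among those called and then by mean level, the 6 largest ratios each way between the macrophage libraries, and the 4 age differences of smallest adjusted p each way. The counts of genes 4-fold apart, and Ptgs1 and other genes named beyond the rule, were chosen after their values were seen. Some members counted in the lists are not reported here by name.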

Additional observations from a re-analysis of the deposited data

Results flagged for a closer look

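In 13 of 125 nonmacrophage groups of 4 libraries, 1 for each named gene, a library lay far from the other 3 by Dixon's test, and chance flags about 1 in 20 groups. Nonmacrophage replicate 5 was that library for 7 genes: S100a8 with 1.36 normalized reads, S100a9 with 0.0, Ngp with 0.0, Prss34 with 2.72, Mcpt8 with 1.36, Tgfbi with 11631.1 and Nefl with 4881.26. Replicate 14 was that library for Folr2 with 2.67, Dusp1 with 52857.1 and Cdh22 with 75.41. Replicate 2 stood apart for Vmo1 with 50452.8 and Hdc with 0.0, and replicate 6 for Fbn1 with 1470.07. For Prss34, Mcpt8, Folr2 and Cdh22 the other 3 libraries had no reads, so any read in 1 library is flagged. Prss34 and Mcpt8 also lay under the floor of replicate 5 (4.09 normalized reads). The neutrophil genes S100a8, S100a9 and Ngp were low in replicate 5 together.

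The macrophage minus nonmacrophage difference differed between ages for the 4 genes named in that comparison, by limma's test of the difference itself. The young difference minus the old one was -10.71 for Pkia, -8.94 for Osbpl5, -8.91 for Ubr7 and -8.81 for Zfp280d on the log2 scale, and all 4 rest on young macrophage libraries at or near 0.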

How the results depend on the processing

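Over all alternatives for single named genes, 8 values reversed direction, 415 lost and 137 gained a call, 481 moved by more than the spread between replicates and 3450 kept direction and call or spread. The number of calls depended on the model. In place of 266 genes called (50 higher and 216 lower), DESeq2 called 2978 (853 and 2125), edgeR 693 (283 and 410), limma without weights 1426 (341 and 1085), without a trend 608 (550 lower), with quantile normalization 542 (211 and 331), with a pseudocount of 10 117 higher and with a pseudocount of 0.1 7 (3 and 4). Adding the auditory nerve and lateral wall libraries gave 1358 (444 and 914), and fitting 14 libraries gave 5814 (1693 and 4121) with 1 shared spread and 493 (30 and 463) with a variance level per group. Leaving out 1 library gave 4 to 1848 calls, 3 to 21 higher and 1 to 1827 lower. For the age difference, in place of 134 calls, all lower, edgeR gave 1463 (141 higher and 1322 lower), no weights 1464 (176 and 1288), a pseudocount of 10 26 and quantile normalization 18, and leaving out 1 library gave 26 to 1249, all lower. Genes at least 4-fold apart numbered 428 higher and 1376 lower, and 463 to 825 and 1451 to 4096 with 1 library left out. Csf1 reversed to 0.33 with DESeq2 and 0.26 with edgeR, and Uchl1 to -0.45 with the nerve and lateral wall libraries added. Without 1 library, Csf1 ranged from -7.69 to 1.46, Tgfb2 from -2.80 to 0.0171, Tgfbr2 from -0.0103 to 1.19, Tgfbi from -0.70 to 1.26 and Egr1 from -0.18 to 2.17. None of these genes was called, and the cause was not tested. With 1 macrophage library left, its spread cannot be measured, and the fit kept the weights of the full fit. In the young comparison these were 0.43 for macrophage libraries and 1.53 for nonmacrophage libraries. No paired analysis was possible because each replicate number occurs once in the series and no label ties a macrophage library to a nonmacrophage library of the same mouse, so shared animals cannot be told from separate ones. Depth limits genes near the floor of 3 reads.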
